A study of Mus musculus with 6 samples.

Results

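Metallothionein genes (Mt1, Mt2, Mt3), the zinc exporter gene Slc30a1 and 6 antioxidant genes that are textbook targets of the transcription factor NRF2 (Hmox1, Nqo1, Gclc, Gclm, Txnrd1, Srxn1) were followed in cultured mouse dermal fibroblasts after a DNA-demethylating drug. The members were all probe sets whose single gene symbol was 1 of these 10 genes, which gave 19 of the 45037 probe sets that were not control probe sets. Of the 19, 18 were bright enough to be tested, and each of the 10 genes kept at least 1 probe set. The rule picked the genes by name and not by their signal. The set was chosen with earlier results of these data known, so counts over it are not independent of these data.

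The data were 6 Affymetrix arrays of total RNA, in 3 groups of 2. All groups came from explant cultures of newborn mice aged 0 to 2 days, offspring of wild-type BL6 mothers and fathers of a 129/ICR background that carried an X-linked GFP transgene under a chicken β-actin promoter and a CMV enhancer; the labels give the strain as B6. In every group the cells had first been sorted for absence of GFP were at passage 4 and, per the design text, carried the transgene on the inactive X chromosome. Control cells were left untreated and carry the word unsorted in their titles. Both other groups were exposed to 5-aza-2'-deoxycytidine (5A2dC) at 4 μM for 48 hours, were left for 24 hours in normal medium, and were then sorted once more into GFP-negative cells, in which the transgene stayed silent, and GFP-positive cells, in which it had become active. The free-text description of the treated samples reads untreated beside this dose, against their titles, sources and treatment protocol; they were taken as treated. Treated cells thus differ from control cells by the drug and by the further sort, and the parts of these steps cannot be told apart. Control array 2 is labelled as of mixed gender and control array 1 as female. The part of this difference in the comparisons with control was not tested. The labels call the replicates biological without saying that they came from separate cultures or animals, so the p-values here speak only of the spread from sample to sample, which may be technical.

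Metallothioneins are small cysteine-rich proteins that bind zinc, copper and cadmium. Their genes are switched on by the zinc-sensing factor MTF1, which binds metal response elements (MREs) in their promoters and in that of Slc30a1, whose product carries zinc out of the cell. NRF2, the product of Nfe2l2, is held in check by KEAP1 and, when released by oxidants or electrophiles, pairs with small MAF proteins at antioxidant response elements (AREs); BACH1 competes for such elements as a repressor. Its targets make glutathione (Gclc, Gclm), keep thioredoxin and peroxiredoxin reduced (Txnrd1, Srxn1), reduce quinones (Nqo1) and break down haem (Hmox1). Methylation of CpG sites in metallothionein promoters has long been studied as a means of their silencing.

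In each group the 2 arrays differed in the same way, and this bears on each value given here. Per-array signals were scaled to a 2% trimmed mean of 500, because 4 arrays had been deposited at that level and the second array of the GFP-negative and of the GFP-positive group at 62.0 and 50.5. After scaling, medians were 122.6 to 134.8 on the arrays numbered 1 and 79.8 to 81.1 on those numbered 2. In the same order, the ratio of 3' to 5' Gapdh signal was 0.67 to 0.70 against 0.79 to 0.85. For actin this ratio went the other way, at 1.19 to 1.21 against 1.07 to 1.16. Each number holds 1 array of each group, so the differences within each number are printed beside the test. The test was limma's moderated test over all 6 arrays on log2(signal + 30.64), adjusted over 27022 probe sets and called at 0.05; the added offset understates the change of dim probe sets. A fit with the replicate number as a block, which takes out the difference between the sets, is given beside it.

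Among the 10 genes, Mt2, Hmox1, Nqo1, Txnrd1 and Srxn1 had both GFP-positive arrays above both control arrays at their brightest probe set. Of all 13223 tested genes, 2520 did so. Mt2 had the largest mean difference of the 10, at 2.03-fold and 3.71-fold of control within the 2 replicate numbers (offset included). Mt1, which lies next to Mt2, was at 0.90-fold and 1.16-fold. In the fit without the block 0 of 18 probe sets passed in GFP-positive against control cells, where 0.122% of all tested probe sets did, and 5 had an unadjusted p under 0.05, beside 7.04% of all. With the replicate block 4 passed (Mt2, Hmox1, Txnrd1 and Srxn1, all higher), beside 6.21% of all tested probe sets and 3.15% called higher. In GFP-negative against control cells 0 of 18 passed without the block, beside a background of 0.0296%, and 2 had an unadjusted p under 0.05, beside 5.07% of all. With the block 2 passed there (Mt2 and Txnrd1, both higher), beside 3.57% of all and 1.9% called higher. With the block but without a mean-variance trend in the fit, 0 of 18 passed in either comparison, with 5 and 3 at an unadjusted p under 0.05. Both comparisons use the same 2 control arrays, so their values are set side by side and not counted as separate evidence.

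**Figure D1:**
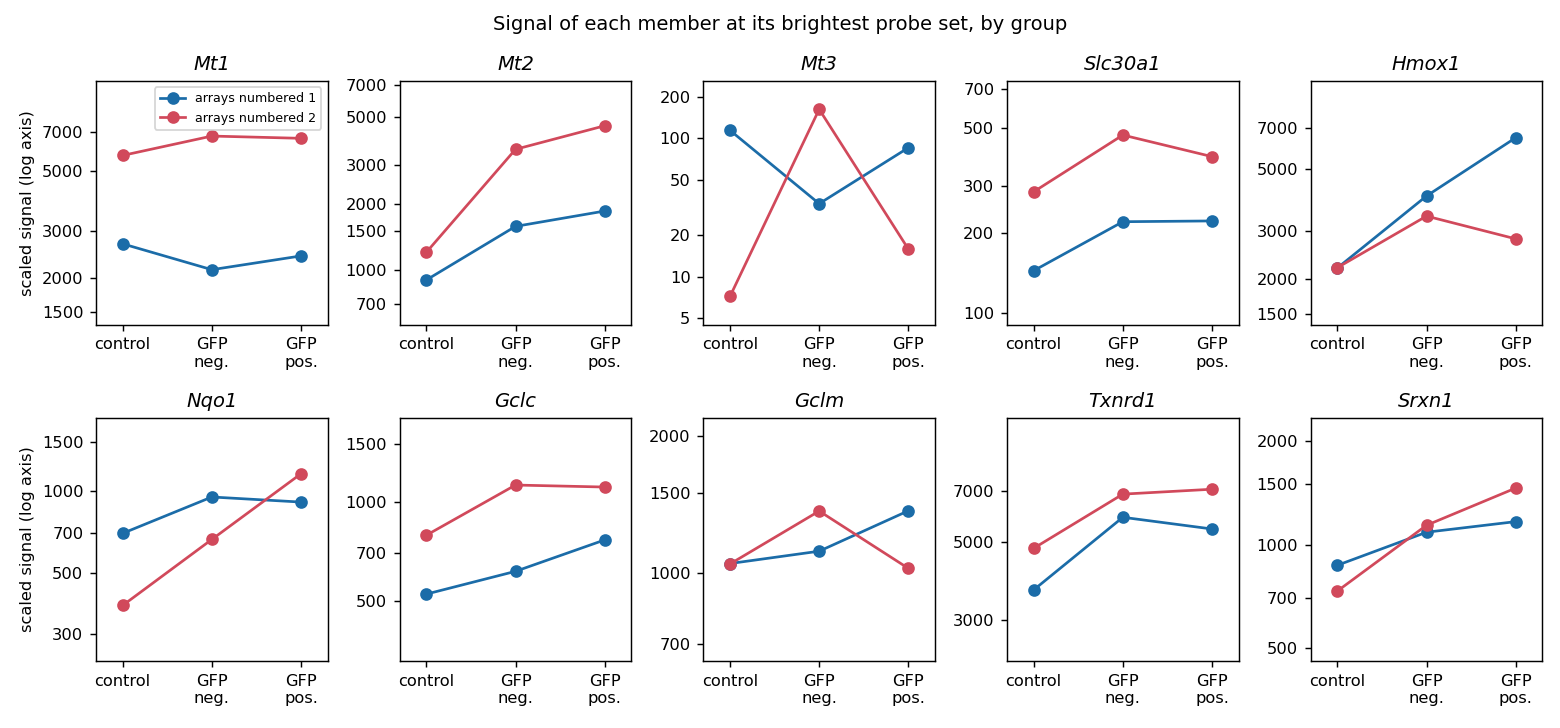
Scaled signal (log axis) of each of the 10 genes at its brightest probe set in control, GFP-negative and GFP-positive cells, with 1 line for the arrays numbered 1 and 1 for those numbered 2. Mt2 climbs from 899 to 1856 and from 1203 to 4548 between control and GFP-positive cells, while Mt1 differs more between the 2 lines than between groups.

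The signals of Mt2 were 899 and 1203 on control arrays 1 and 2, 1579.7 and 3550.5 on the GFP-negative arrays, and 1856 and 4548 on the GFP-positive arrays. All 4 treated arrays lay above both control arrays, and in both replicate numbers the order was control, GFP-negative, GFP-positive. The log2 difference of GFP-positive from control cells was 1.46 ± 0.49 (SE), with 1.02 within the arrays numbered 1 and 1.89 within those numbered 2, and its adjusted p was 0.518 without and 0.00155 with the replicate block. GFP-negative cells differed from control by 1.16 ± 0.49, with 0.79 and 1.54 within the numbers and an adjusted p of 0.966 without and 0.00838 with the block. With the block, the first call held in each of 6 fits that left out 1 array (largest adjusted p 0.0413), and the second was lost without GFP-negative array 2 (adjusted p = 0.0604) and moved to 0.76 without control array 2. Without the block, leaving out GFP-positive array 2 moved the first difference to 0.82 and leaving out GFP-negative array 2 moved the second to 0.59. Between the sorted groups the difference was 0.29, with a 95% interval of −0.85 to 1.43 (−0.15 to 0.73 with the block).

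Mt1, which codes for the other widely expressed metallothionein, had signals of 2685 and 5714 on the control arrays, 2153 and 6742 on the GFP-negative arrays, and 2422 and 6613 on the GFP-positive arrays. The groups overlapped fully, and the arrays numbered 2 were above those numbered 1 in each group. Against control the log2 difference was 0.03 ± 0.64 in GFP-positive and −0.04 ± 0.64 in GFP-negative cells, the first of which was −0.0033 when arrays were centred on their medians. The 95% intervals were −1.46 to 1.52 and −1.53 to 1.45 without the block, which include differences of the size measured for Mt2, and −0.30 to 0.37 and −0.37 to 0.30 with it, which do not. The Mt1 probe set is of a type (_s_at) that can bind related transcripts, and the second Mt1 probe set, at 4.95 to 81.8 over the 6 arrays, was too dim to be tested.

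The log2 signal of Mt2 minus that of Mt1 on the same array was −1.55 and −2.22 in control, −0.44 and −0.92 in GFP-negative, and −0.38 and −0.54 in GFP-positive cells. All 4 treated arrays lay closer to 0 than both control arrays. This is a description with no test, and it gives no relative amount of the 2 transcripts.

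Mt3, a form best known from brain, was dim, with 114 and 7.20 in control, 33.7 and 162 in GFP-negative, and 85.5 and 15.8 in GFP-positive cells. Its groups overlapped and its direction against control was opposite in the 2 replicate numbers in both treated groups. The differences from control were −0.01 ± 0.98 in GFP-positive and 0.59 ± 0.98 in GFP-negative cells, and the first turned sign with quantile normalization (0.0037) and with an offset of 7.66 (0.14).

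In the RefSeq gene table Mt4, Mt3, Mt2 and Mt1 follow each other in this order on chromosome 8, with 1 long non-coding gene between Mt3 and Mt2. RefSeq promoter windows (GRCm38.p6; 250 bases before to 50 after a start site) were at hand for 8 of the 10 members, in 10 windows, with 3 for Txnrd1; Hmox1 and Gclc had none here. The first 280 bases of 3 windows are shown 5′ to 3′ on the gene's strand: Mt2 and Mt1, the neighbouring metallothionein genes compared above, and Srxn1, which has the most ARE matches. The table places the Mt2 and Srxn1 windows at the first base of the RefSeq gene and the Mt1 window at a start site inside the gene, so the Mt1 and Mt2 windows are not placed alike. Capitals mark matches on either strand to the MRE core (TGCACNC or TGCGCNC) or the ARE core (TGACNNNGC or TGAGNNNGC).
Mt2, chr8:94172368-94172647, plus strand: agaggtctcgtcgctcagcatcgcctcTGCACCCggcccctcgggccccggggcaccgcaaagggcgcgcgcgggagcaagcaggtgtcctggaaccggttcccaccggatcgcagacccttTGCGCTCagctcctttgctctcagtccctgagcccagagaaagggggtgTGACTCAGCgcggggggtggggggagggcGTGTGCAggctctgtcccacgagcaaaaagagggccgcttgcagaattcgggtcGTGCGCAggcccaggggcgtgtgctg
Mt1, chr8:94178839-94179118, plus strand: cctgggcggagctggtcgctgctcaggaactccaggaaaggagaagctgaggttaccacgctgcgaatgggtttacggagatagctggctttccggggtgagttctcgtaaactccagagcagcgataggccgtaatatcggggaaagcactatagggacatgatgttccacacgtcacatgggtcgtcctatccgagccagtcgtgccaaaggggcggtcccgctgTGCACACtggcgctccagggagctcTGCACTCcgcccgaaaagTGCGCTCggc
Srxn1, chr2:152105274-152105553, plus strand: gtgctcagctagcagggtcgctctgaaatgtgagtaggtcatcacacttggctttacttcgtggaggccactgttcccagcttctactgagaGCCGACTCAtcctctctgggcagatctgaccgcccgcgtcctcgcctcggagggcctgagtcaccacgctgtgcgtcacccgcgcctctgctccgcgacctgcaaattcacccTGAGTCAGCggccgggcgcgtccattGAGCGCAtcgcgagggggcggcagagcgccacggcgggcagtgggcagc
In these windows Mt2 had 4 MRE matches and 1 ARE match, TGACTCAGC, whose first base is at −79 from the start site. Mt1 had 3 MRE matches, at −23, 3 and 21, and 0 ARE matches. As the Mt1 window is placed at a start site inside the gene, its counts cannot be set against those of Mt2. Bases beyond each window were not searched, so these counts do not describe a whole promoter. Srxn1 had 1 MRE match and 3 ARE matches, of which TGAGTCAGC begins at −45 and 1 lies past the printed bases. The ARE matches TGACTCAGC and TGAGTCAGC each hold the 7 letters of an AP-1 motif.

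Over all 300-base windows of the 8 members, MRE matches numbered 1 for Mt3, 2 for Slc30a1 and 3 for Gclm, and 0 for Nqo1 and Txnrd1. ARE matches numbered 1 each for Mt3 and Gclm, 2 for Slc30a1, 1 in 1 of the 3 Txnrd1 windows and 0 for Nqo1. In Gclm an MRE match at −138 and the ARE match at −134 overlap. Of 32851 RefSeq windows of the same length, 25.7% held an MRE match and 7.11% at least 2, while 27.8% held an ARE match and 4.68% at least 2. The number of CpG pairs was 24 in both the Mt1 and the Mt2 window, 8 in Mt3, 36 in Slc30a1, 48 in Gclm, 26 in Srxn1 and 5 in Nqo1, with a median of 7 over all windows. The 3 Txnrd1 windows held 3, 27 and 12. These counts describe letters; methylation and binding were not measured here, and a missing match says only that the letters are not in the window.

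Slc30a1, the plasma-membrane zinc exporter, read 144 and 286 in control, 221 and 469 in GFP-negative, and 222 and 389 in GFP-positive cells at its brighter probe set. Within each number the treated arrays were above control, but control array 2 lay above both treated arrays numbered 1. The differences from control were 0.47 ± 0.48 in GFP-positive and 0.59 ± 0.48 in GFP-negative cells, with adjusted p-values of 0.328 and 0.269 with the block. The second probe set read 33.3 and 196 in control, 280.1 and 246 in GFP-negative, and 189 and 196 in GFP-positive cells, and its differences of 0.89 and 1.28 rested mainly on the low control array 1: within the arrays numbered 2 they were −0.0011 and 0.29.

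Hmox1, which codes for the inducible haem oxygenase, had nearly equal control signals of 2199 and 2205. They were followed by 3995 and 3382 in GFP-negative and by 6475 and 2800.3 in GFP-positive cells. All 4 treated arrays were above control, but the highest and lowest of them were both GFP-positive. The GFP-positive difference was 0.94 ± 0.37, with 1.54 and 0.34 within the numbers, and its adjusted p was 0.622 without and 0.0368 with the block. That call was lost without control array 1 (difference 0.58, adjusted p = 0.125) or GFP-positive array 1 (0.40, 0.310), and the blocked difference was 1.48 without GFP-positive array 2. In GFP-negative cells the difference was 0.73 ± 0.37, with 0.85 and 0.61 within the numbers and adjusted p-values of 0.9998 without and 0.132 with the block.

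Nqo1, a quinone reductase, read 698 and 381 in control, 947 and 663 in GFP-negative, and 908 and 1152 in GFP-positive cells. The GFP-positive arrays lay above both control arrays, whereas GFP-negative array 2 fell below control array 1. The GFP-positive difference of 0.94 ± 0.35 was 0.36 within the arrays numbered 1 and 1.52 within those numbered 2, and it missed the threshold with the block (adjusted p = 0.05004; 0.579 without). It passed in 4 of the 6 blocked fits that left out 1 array. It did not pass without control array 2 (adjusted p = 0.300) or GFP-positive array 2 (0.554). The GFP-negative difference was 0.59 ± 0.35.

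The glutathione-synthesis pair gave smaller values. Gclc, the catalytic subunit of glutamate-cysteine ligase, read 525 and 791 in control, 615 and 1124 in GFP-negative, and 766 and 1108 in GFP-positive cells. Treated arrays were above control within each number, by 0.52 and 0.47 in GFP-positive and by 0.22 and 0.49 in GFP-negative cells, and the groups overlapped. Neither difference passed with the block (adjusted p = 0.141 and 0.373), and the second Gclc probe set differed by 0.35 and −0.01. Gclm, the modifier subunit, had almost identical control signals of 1049 and 1047, then 1117 and 1368 in GFP-negative and 1370.0 and 1024 in GFP-positive cells. Its differences were 0.17 ± 0.25 and 0.23 ± 0.25, and those of its second probe set were 0.12 and −0.10.

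Txnrd1, the cytosolic thioredoxin reductase, was bright at its leading probe set, with 3656 and 4807 in control, 5894 and 6863 in GFP-negative, and 5458 and 7088 in GFP-positive cells. All 4 treated arrays were above both control arrays, and the differences within the arrays numbered 1 and 2 were 0.57 and 0.56 in GFP-positive and 0.68 and 0.51 in GFP-negative cells. Adjusted p-values with the block were 0.0227 and 0.0252, against 0.697 and 0.932 without it. The first call was lost without GFP-positive array 1 (0.114) or 2 (0.231), and the second without GFP-negative array 1 (0.259) or 2 (0.0910). The other Txnrd1 probe sets differed by 0.64 and 0.56 in GFP-positive but by 0.24 and 0.07 in GFP-negative cells, and 0 of these 4 values passed with the block.

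Srxn1 codes for sulfiredoxin, which reactivates oxidised peroxiredoxins. Its brightest probe set read 871 and 733 in control, 1087 and 1138 in GFP-negative, and 1166 and 1459.5 in GFP-positive cells. All treated arrays were above control and, within both numbers, in the order control, GFP-negative, GFP-positive. The GFP-positive difference of 0.69 ± 0.24 (0.41 and 0.96 within the numbers) passed with the block at an adjusted p of 0.0485 and not without it (0.5398), nor with the block and quantile normalization together (0.0519). Leaving out control array 2, GFP-positive array 1 or GFP-positive array 2 also ended the call (adjusted p = 0.306, 0.0666 and 0.444). The GFP-negative difference was 0.46 ± 0.24 (adjusted p = 0.231 with the block). This probe set is of the _s_at type, and the other 3 differed by 0.19, 0.32 and 0.26 in GFP-positive and by 0.17, 0.30 and −0.47 in GFP-negative cells.

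**Figure D2:**
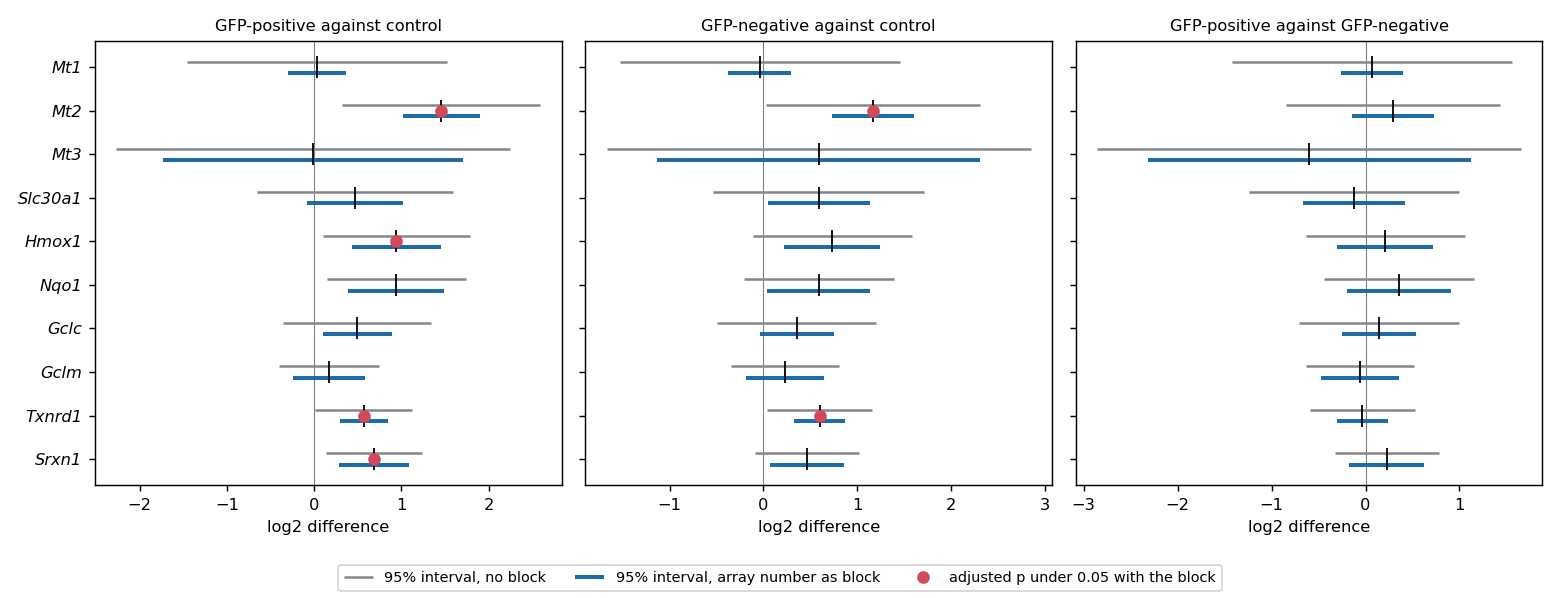
Log2 difference of each gene at its brightest probe set in the 3 comparisons (black tick), with the 95% interval without the block (grey) and with the replicate number as a block (blue); red points mark an adjusted p under 0.05 with the block. Mt2 and Txnrd1 are marked in both comparisons with control, Hmox1 and Srxn1 in GFP-positive cells, and no gene is marked between the sorted groups.

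Counted over the 18 tested probe sets, 17 had a positive difference in GFP-positive against control cells, with a median of 0.48, where the median of all 27022 tested probe sets was 0.04 and 14511 of them were positive. Within both replicate numbers 12 of the 18 were higher and 0 lower, beside 34.6% and 28.5% of all tested probe sets, and 9 had both treated arrays above and 0 below both control arrays, beside 17.3% and 14.9%. In GFP-negative against control cells 14 of 18 were positive, beside 14667 of the 27022, with a median of 0.32 beside 0.04 for all. There 10 were higher and 0 lower within both numbers, beside 33.8% and 26.8%, and 6 did not overlap with control, all higher, beside 15.1% higher and 13.5% lower of all. Several of these probe sets belong to 1 gene and are not separate observations, and the genes were chosen with earlier results of these data known. At the brightest probe set 7 of 10 genes were higher within both numbers in GFP-positive and 8 of 10 in GFP-negative cells. Of all 13223 tested genes, 36.2% and 35.1% were.

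**Figure D3:**
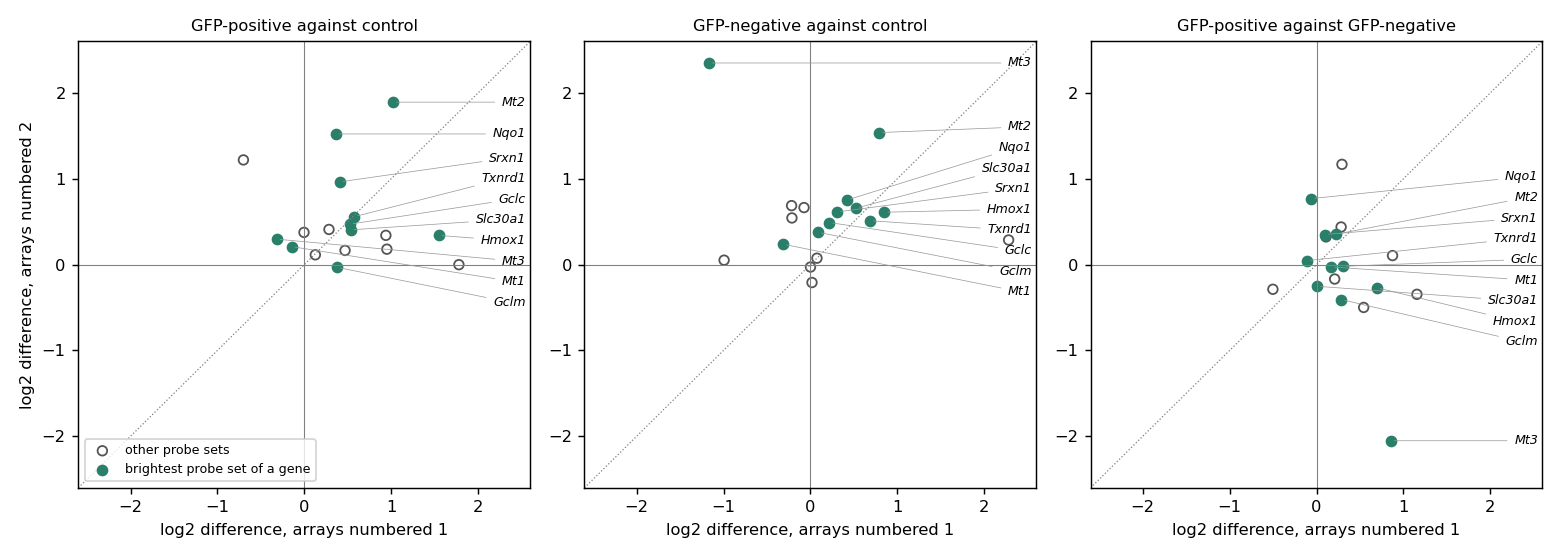
Log2 difference of each tested member probe set within the arrays numbered 1 (horizontal) and within those numbered 2 (vertical), in 3 panels for the 3 comparisons; filled points are the brightest probe set of a gene and the dotted line marks equal differences. In the first panel 12 of 18 probe sets lie above 0 on both axes and in the second 10, while in the third they scatter around 0.

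The comparison of the sorted groups asks whether cells that had regained GFP expression differ further from treated cells that had not. Here 0 of 18 member probe sets passed, with or without the block, as did 0% of the 27022 tested, and 0 member probe sets had an unadjusted p under 0.05 in limma without the block, where 169 of all (0.625%) did. The median difference was 0.18, with 13 of 18 positive, beside a median of −0.0038 and 13362 positive of the 27022. Within both numbers 6 were higher and 1 lower, beside 26.6% and 27.4% of all tested probe sets. Non-overlapping groups were found for 4 higher and 1 lower probe set, beside 10.6% and 10% of all. Of the 10 leading probe sets 6 were positive, beside 6626 of all 13223 tested genes. Only Mt2 and Srxn1 of these 10 were higher in GFP-positive cells within both numbers, by 0.23 and 0.35 and by 0.10 and 0.35, where 27.6% of all tested genes were. Intervals with the block were narrowest for Txnrd1 (−0.31 to 0.24) and widest for Mt3 (−2.32 to 1.12), and differences inside these bounds could not be told from 0 with this number of arrays.

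Other genes of the same pathways were taken from 5 lists, each gene at its brightest probe set. In limma without the block 0 of the 79 tested genes passed in any comparison. An unadjusted p under 0.05 was found for 14 in GFP-positive cells against control, 9 in GFP-negative cells against control and 1 between the sorted groups. Of all 13223 tested genes at their brightest probe set, 1135, 820 and 69 had such a p. With the block 525 of the 13223 were called higher and 502 lower in GFP-positive cells against control. In GFP-negative cells against control these were 321 and 278, and 0 were called between the sorted groups. Of all probe sets 6.21%, 3.57% and 0% were called with the block (3.06% and 1.68% called lower in the comparisons with control). As no list gene passed without the block, the calls given for these lists are those of the blocked fit, 15, 8 and 0 genes. Of them, Bach1 and Mgst1 in both comparisons with control and Sod3 in GFP-negative cells were called in each of the 6 blocked fits that left out 1 array; the other calls were lost in at least 1 of these fits. With the block but without a mean-variance trend every list call was lost, these included (lowest adjusted p 0.116). Of 9 NRF2 regulators, all tested, Mafk passed as higher and Bach1 as lower in both comparisons with control. Bach1 read 1784 and 2582 in control, 814 and 1011 in GFP-negative, and 757 and 1033 in GFP-positive cells. Its differences were −1.25 in GFP-positive and −1.22 in GFP-negative cells (adjusted p = 0.000882 and 0.00155 with the block), and its second probe set was also negative in both, without passing. Mafk, a small MAF partner, differed by 0.78 and 0.90 (adjusted p = 0.0436 and 0.0330), and Maff by 0.76 and 0.63 without passing (0.0659 and 0.166). Nfe2l2, which codes for NRF2 itself, differed by −0.06 and −0.27 and Keap1 by −0.32 and −0.14, none of which passed.

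Of 33 glutathione and thioredoxin genes 28 had a probe set with their symbol alone, and 25 were bright enough to be tested. These 25 split in direction, and 9 of 25 were positive in each comparison with control, which are not all the same genes. In GFP-positive cells Gss, glutathione synthetase, and Gsr, glutathione reductase, passed as higher (0.81 and 0.90; adjusted p = 0.0164 and 0.0116 with the block). Another 6 passed as lower: Gpx4 and Gpx7, glutathione peroxidases, and the glutathione transferase genes Gsta4, Gstm2, Gstm5 and Mgst1, by −0.61 to −1.19. In GFP-negative cells Gpx4, Gsta4, Gstm2 and Mgst1 passed as lower, by −0.54 to −1.33, and 0 passed as higher; Gss differed by 0.66 (adjusted p = 0.0576). Mgst1 read 5468 and 2210 in control, 2642 and 695 in GFP-negative, and 2495 and 908 in GFP-positive cells. Its GFP-negative and GFP-positive arrays numbered 1 thus lay above control array 2, and only the comparison within numbers separates them. Gsr read 525 and 744 in control, 629.9 and 783 in GFP-negative, and 1026 and 1380.4 in GFP-positive cells. Its difference between the sorted groups, 0.74, did not pass (adjusted p = 0.725 with the block).

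Of 21 NADPH and detoxification genes 19 had a probe set with their symbol alone, and 18 were tested. Among these Taldo1, the transaldolase of the pentose phosphate pathway, passed as higher in both comparisons (0.62 and 0.58; adjusted p = 0.0198 and 0.0394 with the block). Cbr3, a carbonyl reductase, passed as higher in GFP-positive cells (0.74; adjusted p = 0.0367). The list's median was 0.27 in GFP-positive and 0.20 in GFP-negative cells. Of the 4 superoxide and peroxide enzymes, Sod3, the extracellular superoxide dismutase, passed as lower in both, by −1.82 and −2.29 (adjusted p = 0.0115 and 0.00440). It read 1518 and 229 in control, 329 and 16.1 in GFP-negative, and 275 and 75.2 in GFP-positive cells, so GFP-negative and GFP-positive arrays numbered 1 lay above control array 2 and only the comparison within numbers separates them.

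Of 23 tested of 30 zinc and copper genes, the zinc importers Slc39a14 and Slc39a6 passed as higher in GFP-positive cells (0.69 and 0.48; adjusted p = 0.0316 and 0.0495 with the block) and 0 passed in GFP-negative cells. The 4 tested Slc39a6 probe sets ranged from −0.31 to 0.52 and the 3 of Slc39a14 from −0.05 to 0.69. Slc39a2, a further zinc importer, had the lowest p of the list without the block in both comparisons and did not pass there (adjusted p = 0.509 and 0.981) or with the block (0.0529 and 0.167). It read 12.7 and 13.5 in control, 89.1 and 89.5 in GFP-negative, and 105 and 157 in GFP-positive cells, with all treated arrays above control and all signals dim. The list's medians were 0.05 and 0.09.

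**Figure D4:**
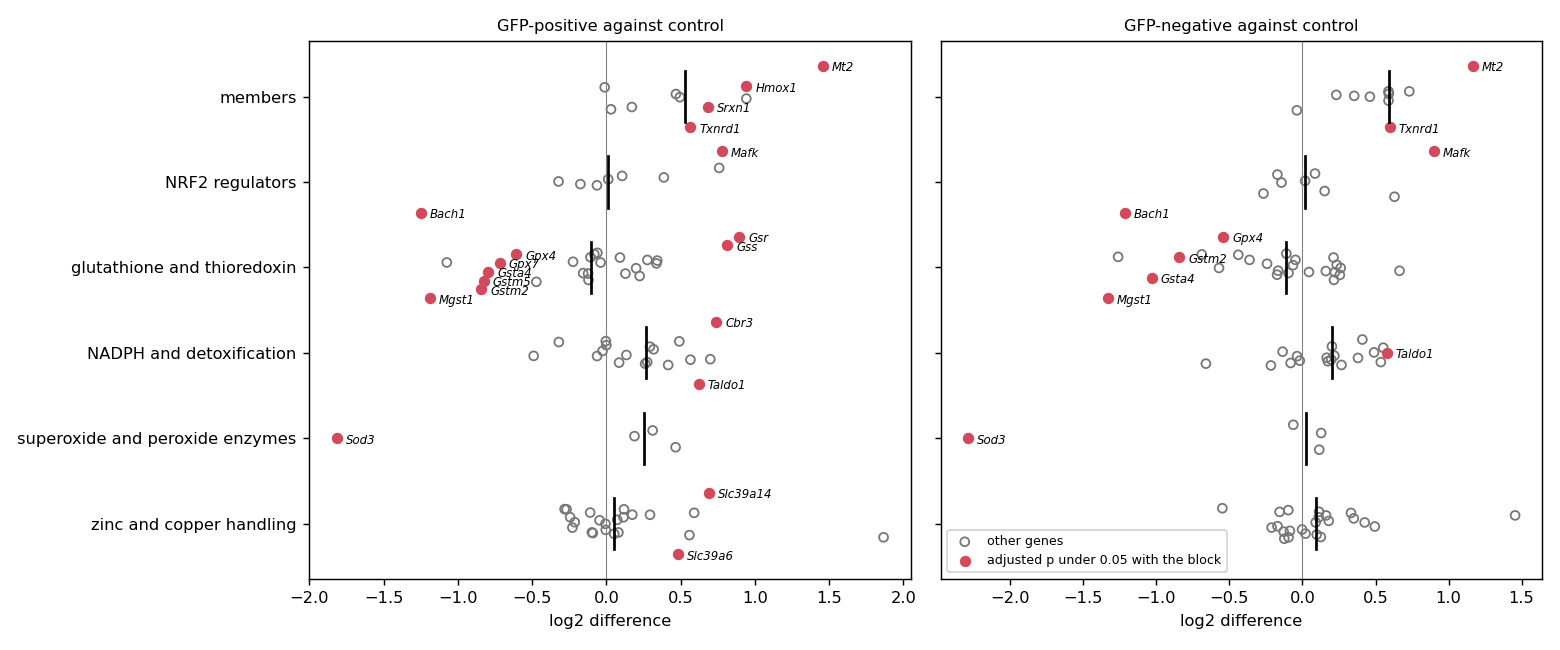
Log2 difference of each tested gene at its brightest probe set, by list, in GFP-positive (left) and GFP-negative (right) against control cells; black bars are list medians and filled red points passed with the replicate block. The glutathione and thioredoxin list has passing genes on both sides of 0, from Gsr at 0.90 to Mgst1 at −1.19 in GFP-positive cells.

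Marker genes were read beside these values. The summed signal of 10 fibroblast markers, all 10 tested, was 180146 and 178080 on control arrays 1 and 2 and 132780 to 146052 in treated cells. Vim was at 36593 to 53039.9 over the 6 arrays. Of these markers Dcn, decorin, was at 12516 and 2957 on control arrays 1 and 2 and at 203 to 2720.4 in treated cells. Lum, lumican, was at 2319.8 and 934 against 51.6 to 291. Col3a1 was at 31909 and 39808 against 17471 to 22927, and Pdgfrb at 13838 and 8464 against 4833 to 6430. Col1a2, Thy1 and Fbln1 were also lower in every treated array than in both control arrays, whereas Col1a1, Pdgfra and Vim overlapped. Of 8 leukocyte markers 5 were bright enough to be tested, and their sum over all 8 was 1298 and 859 in control and 1423 to 1696 in treated cells. Every treated array was above both control arrays for Cd68 (84.1 and 30.5 in control, 148 to 203 in treated cells) and Csf1r (546 and 539, 586 to 829). The same held for Cd3e (33.6 and 21.7, 37.9 to 70.3), which was too dim to be tested. Adgre1, Cd14, Lyz2, Itgam and Ptprc overlapped. Ptprc, which marks all leukocytes, was at 4.90 to 60.1 in every array. Of 4 skeletal muscle markers 2 were tested, with sums of 188 and 251 in control and 373 to 825 in treated cells. Des, desmin, was at 44.6 and 69.1 in control and 224 to 536 in treated cells, while Myod1, at 68.2 and 137 against 14.5 to 141, overlapped and Myog was at 8.90 to 86.1. The sums of the keratinocyte, endothelial, melanocyte, Schwann cell and adipocyte lists overlapped between control and treated cells, and no marker was at 0. The Schwann cell sum rested on 1 of 3 listed genes, Sox10. The part of these differences in the results for the 10 genes was not tested, and in bulk RNA fewer cells of a type and less RNA per cell cannot be told apart.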

How the data were processed

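Total RNA of 6 samples was measured on Affymetrix mouse 430 2.0 arrays. The authors deposited a linear signal intensity for each probe set on each array. It came from MAS5, per the submitters' processing notes, with version, settings and annotation not given in the sources used here. Of 45101 rows, 64 control probe sets were left out. Names came from GEO's platform annotation: 34945 probe sets had 1 symbol, 932 several and 9160 none here. All arrays were brought to a 2% trimmed mean of 500. Before log2, 30.64 was added, the middle of the arrays' 25th percentiles. Probe sets with a mean signal under 67.71 (the 40th percentile) were dropped, which kept 27022. Group means over all 6 arrays were fitted in R 4.3.3 with limma 3.58.1 (eBayes with a trend, two-sided, 3 residual degrees of freedom), and p-values were adjusted after Benjamini and Hochberg over all kept probe sets. The scripts were checked on simulated data with the same noise for every probe set, set below that measured here. This checked that planted differences were recovered and does not speak to the error rate of calls in these data. Alternatives were other scalings, offsets and filters, no trend, the replicate block, fits of 2 groups, other probe sets of a gene, and each array left out. The number of arrays limits the precision.

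Deviations from group means of same-numbered arrays correlated at 0.513, 0.506 and 0.556 in the 3 pairs of groups, over probe sets that are not independent. The pairing rests on the numbers in the labels, which do not say what a number stands for. Every member probe set was described, led by the brightest of its gene. Of the wider lists, genes that passed and at most 3 of smallest p per list and comparison were to be named; Nfe2l2 and Keap1, outside this rule, were chosen after their values were seen. Members, lists and tests were chosen with earlier results of these data known. Promoter sequences are from RefSeq (GRCm38.p6).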

Additional observations from a re-analysis of the deposited data

How the results depend on the processing

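The number of arrays, 2 a group, limits every value. In limma without a block, 0 member probe sets were called in any comparison under any alternative. With the replicate block 4 and 2 were called in GFP-positive and GFP-negative against control cells, and 3 and 2 with the block and quantile normalization; the block changed no other call of a member. All tested probe sets called numbered 33 and 8. They numbered 1679 and 966 with the replicate block, 1622 and 914 with the block and quantile normalization, 8 and 0 with the block and no trend, and 0 and 0 with no trend. For GFP-negative against control cells they were 4 with median centring and 3 each with an offset of 7.66, the stricter filter and only the groups compared. Chosen after seeing the data, leaving out both rescaled arrays gave 62 and 49, and blocked fits without 1 array (1 residual degree of freedom; the array left alone in its group is assumed to vary like the others) were added. Over all fits without 1 array, blocked or not, member calls ranged from 0 to 5, 0 to 4 and 0 to 0, and all calls from 0 to 1946, 0 to 1254 and 0 to 42, for GFP-positive and for GFP-negative cells against control and for the sorted groups. Unblocked fits of this kind also hold the difference between the array sets.

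Signs turned in GFP-positive against control cells for Mt3 (0.0037 with quantile normalization, with or without the block, and 0.14 with an offset of 7.66) and Mt1 (−0.0033 with median centring), and between the sorted groups, with the mean of a gene's probe sets, for Gclm (0.078) and Txnrd1 (0.29). Without both rescaled arrays they turned for Mt1 (−0.69) and Mt3 (0.65) in GFP-positive, for Mt3 (−0.20) and Gclc (−0.065) in GFP-negative against control cells, and for Mt3 (0.85), Slc30a1 (0.0086), Nqo1 (−0.060) and Gclm (0.29) between the sorted groups. Without 1 array, ranges that cross 0 were −0.10 to 0.45 for Gclm, −0.69 to 0.75 for Mt1 and −1.04 to 1.02 for Mt3 in GFP-positive against control cells. In GFP-negative against control cells they were −0.065 to 0.77 for Gclc, −0.014 to 0.48 for Gclm, −0.86 to 0.78 for Mt1 and −1.02 to 2.19 for Mt3. Between the sorted groups they were −0.28 to 0.56 for Gclc, −0.34 to 0.22 for Gclm, −0.39 to 0.81 for Hmox1, −0.75 to 0.89 for Mt1, −0.35 to 0.93 for Mt2, −2.21 to 1.01 for Mt3, −0.14 to 0.85 for Nqo1, −0.62 to 0.37 for Slc30a1 and −0.22 to 0.16 for Txnrd1. Ranges that did not cross 0 but lay over 1.5 times from the value in the fit of all arrays were, in GFP-positive against control cells, 0.82 to 2.10 for Mt2, 0.34 to 1.54 for Hmox1, 0.45 to 1.44 for Nqo1, 0.04 to 0.90 for Slc30a1, 0.21 to 0.78 for Gclc and 0.37 to 0.76 for Txnrd1. In GFP-negative against control cells they were 0.59 to 1.74 for Mt2, 0.37 to 1.09 for Hmox1, 0.18 to 1.00 for Nqo1, 0.09 to 1.09 for Slc30a1 and 0.25 to 0.68 for Srxn1, and between the sorted groups 0.02 to 0.43 for Srxn1. The cause of these changes was not tested. Mt1 has no tested probe set outside the types that can bind related transcripts, so that alternative gave no value for it.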
